A study of Mus musculus with 24 samples.

Results

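The 6 genes described here encode the ISG15 conjugation system: the modifier Isg15, its activating enzyme Uba7, its conjugating enzyme Ube2l6, the ligases Herc6 and Trim25, and the protease Usp18. They were chosen by name for that shared role from the 55487 genes of a count table for CD11b-positive brain cells of male mice aged 8 to 10 weeks. All 6 passed the filter on low counts, which kept 17139 genes, and their counts ran from 37 (Isg15) to 3711 (Usp18) per library. The 8 groups cross prenatal history (offspring of control dams or of dams with maternal immune activation, MIA), brain region (frontal cortex or striatum) and an intraperitoneal injection 18 h before collection (saline, or lipopolysaccharide, LPS, at 4500 endotoxin units per g body weight). The agent used for MIA, the strain and the litters are not given in the labels used here, so MIA and litter cannot be told apart. Each group has 3 libraries, except MIA striatum LPS, where replicate 3 is marked as excluded in its title and 2 remain. The labels do not say that replicates are separate animals, so p-values reflect only how far these samples scatter, and that scatter may be technical.

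ISG15 is a ubiquitin-like protein induced by interferon and by bacterial products such as LPS. UBA7 (also called UBE1L) activates it, UBE2L6 (UBCH8) carries it, and a ligase joins it to target proteins; HERC6 is the main ISG15 ligase of mouse cells, and TRIM25 is a ubiquitin ligase that can also transfer ISG15 and that acts with the RNA sensor RIG-I. USP18 removes ISG15 from targets and, through IFNAR2, also restrains signalling by the type I interferon receptor. In brain, microglia are among the cells that express these genes, and mice without Usp18 have activated, interferon-stimulated microglia in white matter.

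The 23 libraries held 19453295 to 29480499 counts each. All 11 microglia markers had a count in every library, and their summed level was 47309 to 65394 CPM (counts scaled to the library's total) in saline and 29469 to 41649 CPM after LPS. Because these are bulk samples, fewer cells of a type and less RNA per cell cannot be told apart. The 9 blood monocyte markers, of which F10 and Vcan were at 0 in some library, summed to 16.6 to 98.5 CPM over the 12 saline libraries and to 110 to 336 CPM over the 11 LPS libraries. The 10 neutrophil markers, none at 0, summed to 298 to 1007 CPM in saline and to 614 to 1100 CPM after LPS. Monocyte markers were higher in every LPS library than in every saline library of the same region and prenatal group. Neutrophil markers were so too except in MIA cortex (550 to 1007 CPM in saline, 618 to 890 CPM after LPS). In control striatum the sums of oligodendrocyte, neuron, dendritic cell, and endothelial and mural markers, beside microglia, were lower after LPS without overlap. The 7 oligodendrocyte markers summed to 1299 to 5498 CPM in saline and 482 to 1056 CPM after LPS. The neuron markers went from 67.1 to 139 CPM to 25.98 to 39.0 CPM, and the endothelial and mural markers from 1160 to 2483 CPM to 645 to 1082 CPM. The dendritic cell markers went from 24.2 to 26.8 CPM to 18.8 to 22.3 CPM, but not as a set. Among them edgeR called Cd209a lower there (log2 -2.52, adjusted p = 0.0019) and Ccr7 higher (3.58, adjusted p = 0.0047), and the rest were not called. Of 7 lymphocyte markers, 6 were at 0 in some library, and only those that passed the filter (Nkg7, Ms4a1, Ncr1 and Trbc2) were summed. The sum was low but higher in every LPS than in every saline library of control cortex (2.27 to 4.79 against 0.63 to 1.27 CPM). The same held in control striatum (1.58 to 2.73 against 0.67 to 1.13 CPM) and MIA cortex (1.59 to 2.96 against 0.57 to 1.51 CPM). In MIA striatum the sums overlapped (0.62 to 1.15 against 0.44 to 1.14 CPM). Of the summed genes, edgeR called only Nkg7, in control cortex (log2 3.04, adjusted p = 0.0021). None was called for LPS in control striatum, MIA cortex or MIA striatum. These lists move beside the LPS comparisons of the 6 genes, and their part in the results was not tested. MIA cortex LPS replicate 3 stood apart from replicates 1 and 2 of its group. Its 11 neuron markers summed to 230 CPM against 24.8 and 19.99, and its oligodendrocyte markers to 1684 CPM against 288 and 319. Its 7 border macrophage markers summed to 549 CPM against 1083 and 1295. Tests and group means of the 6 genes that use this library are given with and without it.

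Isg15 encodes the modifier itself. In control cortex its level was 2.51, 1.88 and 2.29 CPM in the 3 saline libraries and 22.2, 36.2 and 26.9 CPM in the 3 LPS libraries. In control striatum it was 3.58, 2.34 and 2.68 CPM in saline and 15.9, 16.2 and 28.3 CPM after LPS. Every control LPS library was above every saline library of either region. Isg15 rose 12.7-fold in control cortex (log2 fold change 3.67 ± 0.55 SE, edgeR quasi-likelihood test, adjusted p = 6.5e-05) and 7.03-fold in control striatum (2.81 ± 0.53, adjusted p = 0.00058), the steepest rise of the 6 in cortex and second to Usp18 in striatum.

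The promoter of Isg15 carries a dense run of the core of the interferon-stimulated response element (ISRE), searched on both strands as a pair of GAAA runs with any 2 bases between them. Its 250 bases before the start site are shown with this run in capitals, and those of Herc6, in which the core was not found, are shown for comparison. Both come from RefSeq on GRCm38.p6, at chr4:156200819-156201068 on the minus strand for Isg15 and chr6:57580742-57580991 on the plus strand for Herc6.
Isg15: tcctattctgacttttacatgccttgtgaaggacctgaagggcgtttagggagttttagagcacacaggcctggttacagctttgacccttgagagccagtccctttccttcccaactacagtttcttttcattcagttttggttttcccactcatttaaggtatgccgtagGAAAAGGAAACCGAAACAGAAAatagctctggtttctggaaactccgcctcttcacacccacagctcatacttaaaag
Herc6: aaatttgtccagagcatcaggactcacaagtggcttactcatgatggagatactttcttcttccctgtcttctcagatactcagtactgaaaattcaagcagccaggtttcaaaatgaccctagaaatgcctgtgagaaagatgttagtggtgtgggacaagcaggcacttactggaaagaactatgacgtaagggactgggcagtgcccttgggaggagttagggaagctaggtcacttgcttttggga
The run in Isg15 holds 3 overlapping matches, GAAAAGGAAA, GAAACCGAAA and GAAACAGAAA, from 78 to 57 bases before the start site. Of the 6 genes, 5 have a promoter in the table; Usp18 does not. No match lay in the windows of Uba7, Ube2l6, Herc6 or Trim25, which says only that these letters are absent from 300 bases. Of all 32851 promoters of that length 3.44% hold the core, and 16 of the 31 listed genes of an interferon response reference list hold it. The core of the gamma-activated site, TTCNNNGAA on both strands, was in 8.3% of all promoters and in none of the 5.

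Uba7, the activating enzyme, had the smallest estimated LPS differences of the 6 in control offspring. Its level was 67.5, 60.1 and 70.6 CPM in control cortex saline and 101, 78.8 and 118 CPM after LPS, and it was 64.4, 53.6 and 61.0 CPM in control striatum saline and 83.4, 54.1 and 100.1 CPM after LPS. The cortex groups did not overlap and the striatum groups did. The log2 difference was 0.59 ± 0.24 in control cortex (adjusted p = 0.0967) and 0.41 ± 0.24 in control striatum (adjusted p = 0.249), and neither passed the threshold of 0.05. In cortex, Uba7 was called once MIA cortex LPS replicate 3 was taken out of the shared fit (0.56 ± 0.19, adjusted p = 0.048).

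Ube2l6, the conjugating enzyme, rose 1.94-fold in control cortex, from 39.0, 43.2 and 32.2 CPM to 71.3, 61.8 and 89.3 CPM (log2 0.96 ± 0.25, adjusted p = 0.0098). In control striatum it rose 1.74-fold, from 33.4, 44.0 and 37.9 CPM to 77.9, 55.7 and 67.0 CPM (0.80 ± 0.25, adjusted p = 0.0268). Every LPS library was above every saline library in both regions.

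Herc6, the main mouse ISG15 ligase, rose 2.79-fold in control cortex (log2 1.48 ± 0.34, adjusted p = 0.0041). Its level there was 30.9, 22.4 and 35.4 CPM in saline and 71.1, 51.6 and 125 CPM after LPS. In control striatum it rose 2.09-fold (1.06 ± 0.34, adjusted p = 0.0305), from 34.8, 30.2 and 28.0 CPM to 76.7, 41.8 and 75.3 CPM. The groups were apart in both regions, although the LPS libraries varied over a wide range.

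Trim25, the other ligase, had the smallest standard errors of the 6. It was 25.1, 27.4 and 29.4 CPM in control cortex saline and 40.5, 37.4 and 53.1 CPM after LPS, a 1.6-fold rise (log2 0.68 ± 0.14, adjusted p = 0.0018). In control striatum it was 23.2, 23.2 and 22.7 CPM in saline and 42.1, 50.1 and 48.9 CPM after LPS, a 2.04-fold rise (1.03 ± 0.14, adjusted p = 2.8e-05). The saline and LPS libraries did not overlap in either region.

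Usp18, the protease, rose with Isg15. Its level was 10.95, 14.9 and 12.2 CPM in control cortex saline and 111, 100 and 160 CPM after LPS, a 9.78-fold rise (log2 3.29 ± 0.55, adjusted p = 0.00019). In control striatum it was 14.98, 11.9 and 9.38 CPM in saline and 122, 74.6 and 133 CPM after LPS, a 9.09-fold rise (3.18 ± 0.54, adjusted p = 0.00024). The lowest control LPS library was far above the highest saline library.

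In control offspring LPS thus raised 5 of the 6 genes in cortex and 5 of 6 in striatum, where 10.9% and 12.7% of all genes tested were called higher. The genes' libraries did not overlap for 6 of 6 in cortex and 5 of 6 in striatum, against 18% and 17.6% of all genes in that direction. The median log2 fold change of the 6 was 1.22 in cortex and 1.05 in striatum, beside 0.04 and -0.02 over all genes. In striatum the count fell to 3 of 6 when any of 4 libraries was left out (LPS replicates 1 and 3, saline replicates 1 and 3); Ube2l6 and Herc6 lost their call each time. Leaving out striatum saline replicate 2 ended the call of Herc6 (adjusted p = 0.0877), and leaving out cortex saline replicate 3 that of Ube2l6 (adjusted p = 0.0551). With the library marked as excluded added back to the shared fit, the calls of Ube2l6 (adjusted p = 0.0785) and Trim25 (0.0812) were lost in cortex and that of Ube2l6 in striatum (0.133). The response did not differ between the regions by test: the LPS by region interaction in control offspring was called for 0 of the 6 genes (0% of all genes), none had an unadjusted p under 0.05, and DESeq2 called 0. Its widest interval was that of Usp18, -1.59 to 1.38 on the log2 scale. With MIA cortex LPS replicate 3 out of the shared fit, edgeR again called none. Isg15 then had an interaction of -0.83 (interval -1.60 to -0.07, unadjusted p = 0.0346, adjusted p = 0.682).

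**Figure D1:**
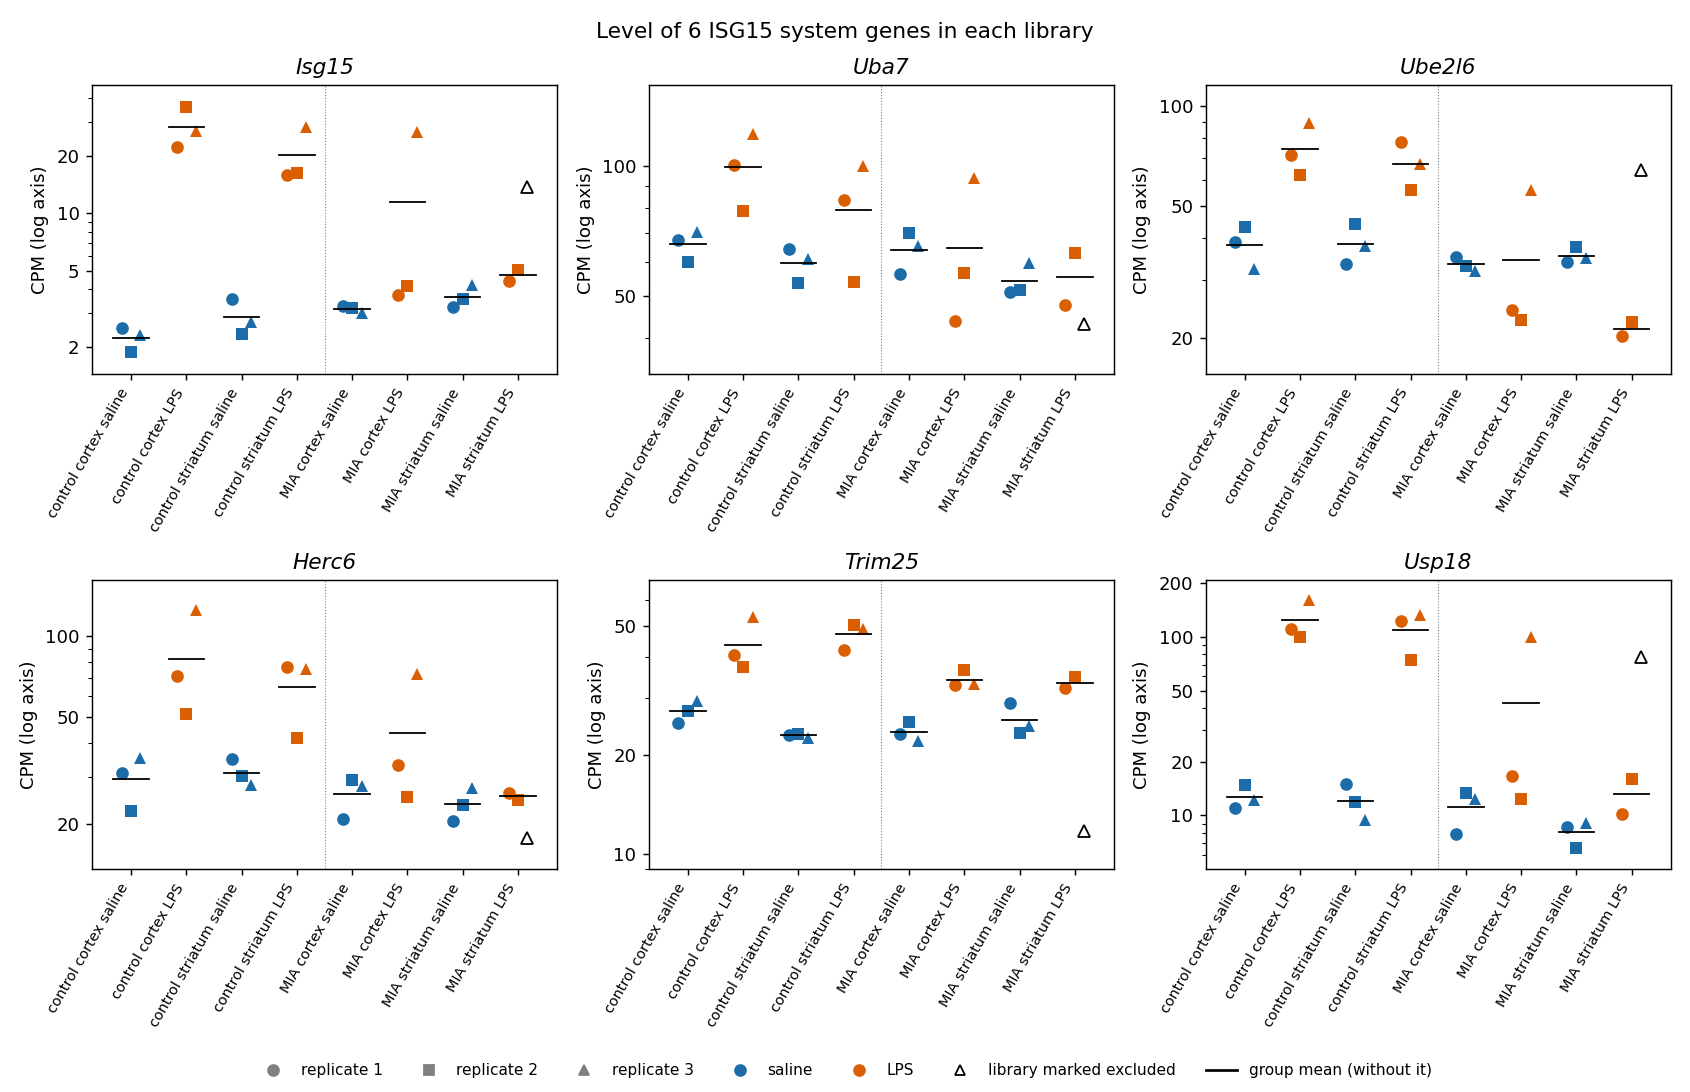
Level of each of the 6 genes (CPM with TMM scaling, logarithmic axis, a different range per panel) in every library of the 8 groups; bars are group means, and the open triangle is the library marked as excluded, which no mean or test includes. After LPS the control libraries lie high for Isg15 and Usp18, while of the MIA LPS libraries used only cortex replicate 3 reaches the range of the 6 control LPS libraries (15.9 to 36.2 CPM for Isg15, 74.6 to 160 CPM for Usp18).

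In MIA offspring the 6 genes responded unevenly, and in cortex the response rested largely on 1 library. Isg15 was 3.28, 3.20 and 3.00 CPM in MIA cortex saline, and 3.72, 4.16 and 26.5 CPM in LPS replicates 1, 2 and 3. Usp18 was 7.83, 13.3 and 12.4 CPM in saline and 16.6, 12.4 and 99.4 CPM after LPS. Replicate 3 lay within the control cortex LPS libraries for Isg15 and just below the lowest of them for Usp18 (100 CPM), and replicates 1 and 2 were close to saline. The other genes split the same way except Trim25. Ube2l6 was 24.3, 22.7 and 55.8 CPM after LPS against 31.9 to 35.1 CPM in saline, so that replicates 1 and 2 were below every saline library and replicate 3 above. Herc6 was 33.2, 25.3 and 72.5 CPM against 21.0 to 29.2 CPM, and Uba7 43.8, 56.6 and 93.7 CPM against 56.3 to 69.9 CPM. Trim25 was 32.8, 36.5 and 33.1 CPM after LPS against 22.1 to 25.4 CPM in saline, with all 3 libraries above saline and replicate 3 between the others.

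By test, LPS raised 3 of the 6 genes in MIA cortex, where 7.05% of all genes were called higher. They were Isg15 (3.65-fold, log2 1.87 ± 0.51, adjusted p = 0.0189), Trim25 (1.45-fold, 0.53 ± 0.14, adjusted p = 0.0167) and Usp18 (3.84-fold, 1.94 ± 0.52, adjusted p = 0.017). Isg15 and Trim25, 2 of the 6, had every LPS library above every saline library, as had 14.2% of all genes. Herc6 differed by 0.75 ± 0.34 (adjusted p = 0.182), and the differences of Uba7 (0.02 ± 0.24) and Ube2l6 (0.045 ± 0.25) were small beside their errors. Without MIA cortex LPS replicate 3 the count was 1 of 6 (7.07% of all genes higher): Trim25 rose (0.54, adjusted p = 0.0301), while Isg15 differed by 0.30 (adjusted p = 0.561) and Usp18 by 0.36 (adjusted p = 0.489). Ube2l6 then differed by -0.52 (adjusted p = 0.0612), Uba7 by -0.37 (adjusted p = 0.311) and Herc6 by 0.15 (adjusted p = 0.806). No gene was called without MIA cortex saline replicate 1, when the adjusted p was 0.0548 for Trim25, 0.0601 for Isg15 and 0.0827 for Usp18. The call of Isg15 was also lost without saline replicate 2 or 3 (adjusted p = 0.0597 and 0.0611), and that of Trim25 without LPS replicate 2 (adjusted p = 0.0756). With the library marked as excluded added back, Trim25 (adjusted p = 0.236) and Usp18 (0.0706) were not called.

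In MIA striatum LPS 2 libraries remained. Isg15 was 3.23, 3.55 and 4.19 CPM in saline and 4.40 and 5.06 CPM after LPS, and Usp18 was 8.63, 6.54 and 9.10 CPM in saline and 10.1 and 16.0 CPM after LPS. Ube2l6 was 33.8, 37.6 and 34.9 CPM in saline and lower, 20.3 and 22.3 CPM, after LPS. Trim25 was 29.03, 23.5 and 24.6 CPM in saline and 32.2 and 34.7 CPM after LPS. Herc6 and Uba7 overlapped, at 24.6 to 26.1 CPM against 20.5 to 27.1 CPM and at 47.7 to 63.1 CPM against 51.2 to 59.7 CPM. None of the 6 was called by edgeR (6.93% of all genes were called higher and 3.31% lower), and DESeq2 called 0. An unadjusted p under 0.05 was reached by 2, Trim25 higher (12.8% of all genes) and Ube2l6 lower (8.66%). Isg15, Trim25 and Usp18 had both LPS libraries above all saline libraries, as had 24.3% of all genes, and Ube2l6 had both below, as had 20.1%. The log2 differences were 0.37 ± 0.55 for Isg15 (95% interval -0.79 to 1.53), 0.69 ± 0.57 for Usp18 (-0.49 to 1.88), 0.38 ± 0.16 for Trim25 and -0.74 ± 0.28 for Ube2l6 (adjusted p = 0.118). With MIA cortex LPS replicate 3 out of the shared fit, Ube2l6 was called lower in MIA striatum (-0.75 ± 0.18, adjusted p = 0.0082), as were 3.88% of all genes.

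The library marked as excluded, MIA striatum LPS replicate 3, held 13.7 CPM of Isg15, 76.8 CPM of Usp18 and 64.4 CPM of Ube2l6, above both other libraries of its group. It held 17.7 CPM of Herc6, 11.7 CPM of Trim25 and 43.1 CPM of Uba7, below both. Its neuron markers summed to 267 CPM and its oligodendrocyte markers to 6340 CPM, against at most 44.0 and 1473 CPM in the other 2.

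**Figure D2:**
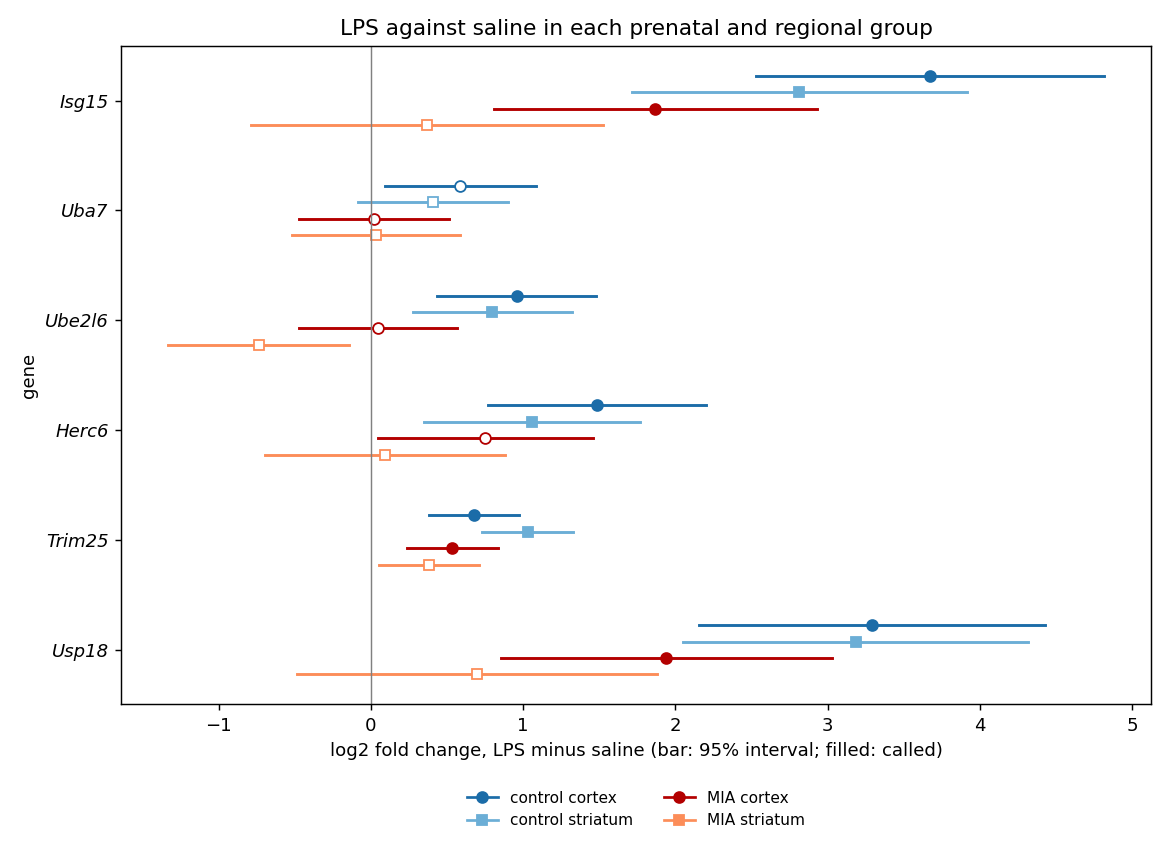
Log2 fold change of each gene, LPS minus saline, in the 4 prenatal and regional groups, from edgeR with all 23 libraries; bars are 95% confidence intervals and filled symbols mark adjusted p under 0.05. Isg15 and Usp18 lie near 3 in both control groups and nearer 0 in MIA striatum, and Ube2l6 lies on opposite sides of 0 in control striatum (0.80) and MIA striatum (-0.74).

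Before LPS, no difference between MIA and control offspring passed the test in these genes. Of the 6 genes 0 were called by edgeR in cortex, 0 in striatum and 0 for the average of the regions (0% of all genes in each); none had an unadjusted p under 0.05, and DESeq2 called 0. Over the 12 saline libraries Isg15 ran from 1.88 to 4.19 CPM, Usp18 from 6.54 to 14.98 CPM and Ube2l6 from 31.9 to 44.0 CPM. The averaged difference, MIA minus control, had 95% intervals of -0.33 to 1.18 for Isg15, -1.14 to 0.38 for Usp18 and -0.52 to 0.21 for Ube2l6 on the log2 scale. With MIA cortex LPS replicate 3 out of the shared fit, edgeR again called none of them. Isg15 then differed by 0.43 in the average (interval 0.04 to 0.83, unadjusted p = 0.0308, adjusted p = 0.704). Usp18 differed by -0.57 in striatum (interval -1.13 to -0.0032, unadjusted p = 0.0488, adjusted p = 0.841). Isg15 was higher in each MIA cortex saline library (3.00 to 3.28 CPM) than in each control one (1.88 to 2.51 CPM), the single gene of the 6 apart in that comparison, against 7.04% of all genes in that direction. In striatum saline Trim25 lay above and Herc6 and Usp18 below, where 6.58% and 6.75% of all genes did so.

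After LPS all 6 estimates were lower in MIA than in control offspring, in both regions. In striatum 5 of the 6 genes, all but Uba7, had both MIA libraries below all 3 control libraries, as had 10.6% of all genes. The library marked as excluded, not used here, held 76.8 CPM of Usp18 and 64.4 CPM of Ube2l6. Both values lay within the control striatum LPS libraries (74.6 to 133 and 55.7 to 77.9 CPM), while its Isg15, Herc6 and Trim25 lay below them. By edgeR in striatum, Ube2l6 was the 1 gene called lower (0.105% of all genes were), 3.14-fold lower (log2 -1.65 ± 0.29, adjusted p = 0.0274). Usp18 was 8.38-fold lower (-3.07 ± 0.64, adjusted p = 0.0604), Isg15 4.26-fold lower (-2.09 ± 0.59, adjusted p = 0.216) and Herc6 2.55-fold lower (-1.35 ± 0.39, adjusted p = 0.243), none of them past the threshold. The same 5 genes, all but Uba7, had an unadjusted p under 0.05 (4.65% of all genes, lower) and were called by DESeq2. Over all genes in this comparison DESeq2 called 242 in either direction, with 6979 left without an adjusted p, and edgeR called 25. The call of Ube2l6 was lost without control striatum LPS replicate 1 (adjusted p = 0.0807), with the library marked as excluded added back (adjusted p = 0.476) and without either MIA library, when the lone library of its group is assumed to vary like the other groups. With MIA cortex LPS replicate 3 out of the shared fit, Isg15 (adjusted p = 0.0016), Ube2l6 (5.8e-05) and Usp18 (4.6e-05) were called lower in striatum, at nearly the same differences, where 0.453% of all genes were. These calls came with smaller standard errors (0.30 for Isg15) once that library no longer entered the shared spread. They also leave out the library marked as excluded, which held more Isg15, Ube2l6 and Usp18 than both MIA libraries used. These adjusted p-values therefore cannot decide whether MIA and control differ in striatum. Blood monocyte markers in these groups summed to 110 to 173 CPM in MIA and to 124 to 276 CPM in control striatum after LPS, and border macrophage markers to 853 to 1160 CPM against 348 to 547 CPM; their part in the result was not tested.

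In cortex after LPS, 3 of the 6 genes (Ube2l6, Trim25 and Usp18) had every MIA library below every control library, as had 5.15% of all genes. None of the 6 was called by edgeR (0% of all genes were called lower). All 6 had an unadjusted p under 0.05, as had 2.78% of all genes in that direction, and DESeq2 called 1, Ube2l6. Over all genes DESeq2 called 58 there in either direction. The estimates ran from -1.53 ± 0.51 for Usp18 (adjusted p = 0.722) to -0.36 ± 0.14 for Trim25 (adjusted p = 0.914). Without MIA cortex LPS replicate 3 edgeR called 4 of the 6 lower, where 0.482% of all genes were. Usp18 was then 8.47-fold lower (-3.08 ± 0.33, adjusted p = 3.2e-05), Isg15 7.18-fold (-2.84 ± 0.32, adjusted p = 4.0e-05), Ube2l6 3.13-fold (-1.65 ± 0.18, adjusted p = 4.0e-05) and Herc6 2.79-fold (-1.48 ± 0.32, adjusted p = 0.0383). Uba7 (-0.97 ± 0.22, adjusted p = 0.0545) and Trim25 (-0.32 ± 0.16, adjusted p = 0.731) were not called. The library left out had the highest Isg15, Ube2l6, Herc6 and Usp18 of its group. Leaving it out by itself lowers the MIA levels of those genes, so these adjusted p-values cannot decide whether MIA and control differ.

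Whether the response to LPS itself differed between MIA and control offspring was tested by the interaction. With all 23 libraries edgeR called 0 of the 6 genes in cortex, 0 in striatum and 0 for the average of both regions, where 0%, 0% and 0.0175% of all genes were called in either direction. For the average, 5 of the 6 had an unadjusted p under 0.05 in the lower direction, as had 5.72% of all genes. DESeq2 called 3 of the 6 (Isg15, Ube2l6 and Usp18). Over all genes DESeq2 called 152 for the average in either direction, and edgeR called 3. The averaged interaction was -2.12 ± 0.52 for Isg15 (adjusted p = 0.147), -1.22 ± 0.26 for Ube2l6 (adjusted p = 0.0702), -1.92 ± 0.53 for Usp18 (adjusted p = 0.223), -0.85 ± 0.35 for Herc6 (adjusted p = 0.445), -0.40 ± 0.15 for Trim25 (adjusted p = 0.387) and -0.47 ± 0.24 for Uba7 (adjusted p = 0.576). In cortex alone 2 genes had an unadjusted p under 0.05 (2.65% of all genes, lower) and DESeq2 called 0. In striatum alone 4 had (4.27%) and DESeq2 called 1, Ube2l6. Over all genes DESeq2 called 1 in cortex and 37 in striatum, in either direction.

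Without MIA cortex LPS replicate 3 the averaged interaction was called for 3 of the 6 genes, with 0.582% of all genes called lower. These were Isg15 (-2.90 ± 0.28, adjusted p = 6.9e-06), Ube2l6 (-1.50 ± 0.17, adjusted p = 4.1e-05) and Usp18 (-2.70 ± 0.29, adjusted p = 2.5e-05). The same genes were called in cortex alone (-3.35, -1.45 and -2.90), with 0.2% of all genes called lower, and in striatum alone (-2.46, -1.55 and -2.50), with 0.129%. Herc6 (-1.14 ± 0.29, adjusted p = 0.1), Uba7 (-0.66 ± 0.21, adjusted p = 0.218) and Trim25 (-0.39 ± 0.15, adjusted p = 0.36) were not. The library left out held the most Isg15 and Usp18 of the MIA LPS libraries used (26.5 and 99.4 CPM). Leaving it out by itself lowers the MIA cortex response of these genes, and the standard errors were smaller without it. These adjusted p-values from edgeR therefore cannot decide whether the responses differ. The comparisons of MIA with control after LPS and the interactions share their libraries, so they are not separate evidence.

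**Figure D3:**
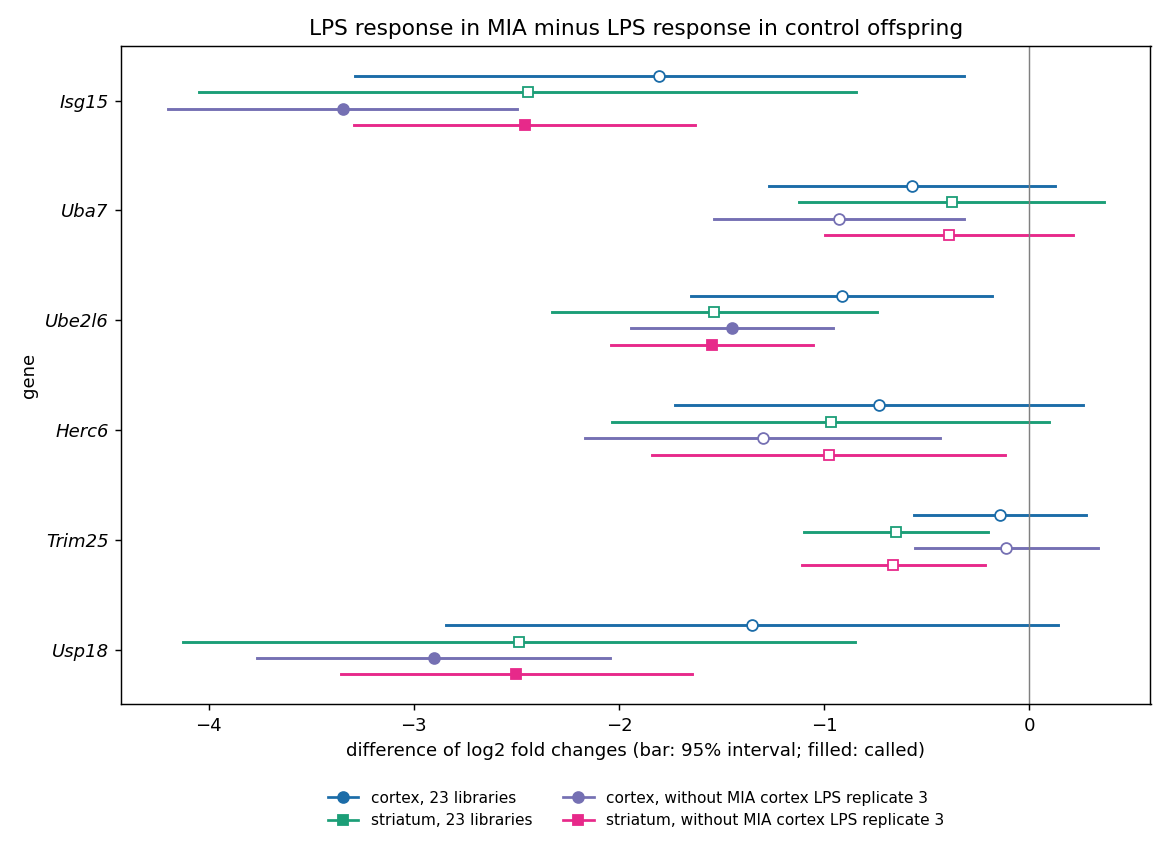
LPS response in MIA minus LPS response in control offspring for each gene, as a difference of log2 fold changes, in cortex and striatum, with all 23 libraries and without MIA cortex LPS replicate 3; bars are 95% confidence intervals and filled symbols mark adjusted p under 0.05. All estimates lie below 0, and the intervals of Isg15, Ube2l6 and Usp18 narrow when that library is left out. The estimates of these genes are then -3.35, -1.45 and -2.90 in cortex and -2.46, -1.55 and -2.50 in striatum.

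No difference between the regions passed the test in these genes. Every striatum library lay below every cortex library for Trim25 in control saline and for Ube2l6 in MIA LPS. Of all genes 9.99% and 7.12% did so in these comparisons. Striatum minus cortex was called by edgeR for 0 of the 6 genes in control saline (0.502% of all genes in either direction), 0 in MIA saline (0.0817%), 0 in control LPS (0.0175%) and 0 in MIA LPS (0.0117%), and DESeq2 called 0 in each. In MIA LPS 3 genes had an unadjusted p under 0.05, all lower in striatum, as had 2.28% of all genes (Isg15 -1.29 ± 0.57, Ube2l6 -0.69 ± 0.28, Usp18 -1.71 ± 0.60). Without MIA cortex LPS replicate 3 these differences were 0.26 ± 0.32, -0.14 ± 0.19 and -0.15 ± 0.33. The other 3 comparisons of regions had none under 0.05. The LPS by region interaction in MIA offspring was called for 0 of the 6 genes (0% of all genes), with none at an unadjusted p under 0.05 and 0 called by DESeq2; without that library too, edgeR called none and no unadjusted p was under 0.05.

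Ordered by group mean, control cortex LPS was highest for 5 of the genes and control striatum LPS for Trim25 (47.0 ± 4.32 CPM, SD, n = 3). For Isg15 the means fell from 28.4 ± 7.12 CPM in control cortex LPS through 20.1 ± 7.04 in control striatum LPS and 11.5 ± 13.04 in MIA cortex LPS to 4.73 ± 0.47 (n = 2) in MIA striatum LPS, and each of these overlapped the next. The 4 saline groups followed at 3.66, 3.16, 2.87 and 2.23 CPM, the first of them below MIA striatum LPS without overlap. For Usp18 the order was 124 ± 32.1, 110 ± 30.9, 42.8 ± 49.0 and 13.1 ± 4.17 CPM for the same 4 LPS groups, then 12.7 to 8.09 CPM in saline, and every neighbour overlapped. For Ube2l6 the order broke between control striatum LPS (66.9 ± 11.1 CPM) and control striatum saline (38.4 ± 5.33 CPM), and again above MIA striatum LPS, the lowest group (21.3 ± 1.43 CPM). Trim25 fell into 3 steps that did not overlap: the control LPS groups, the MIA LPS groups (34.1 ± 2.05 and 33.5 ± 1.74 CPM) and the saline groups (27.3 to 23.03 CPM). For Uba7 and Herc6 every group overlapped the next. Without MIA cortex LPS replicate 3 the mean of MIA cortex LPS (n = 2) was 3.94 ± 0.31 CPM for Isg15, below MIA striatum LPS and overlapping saline, and 14.5 ± 2.95 CPM for Usp18, still the third. The mean was then 50.2 ± 9.02 CPM for Uba7, the lowest group, 23.5 ± 1.18 CPM for Ube2l6, below every saline group, 29.2 ± 5.57 CPM for Herc6, among the saline groups, and 34.6 ± 2.62 CPM for Trim25. Isg15, Usp18 and Herc6 then had a gap below control striatum LPS, with no overlap between it and the next group.

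Likeness of profiles over the 23 libraries was measured as the root mean square difference between log2 CPM profiles after each gene's own mean was subtracted, among 11916 genes, as a description. Usp18 was nearest to Rtp4 (0.26), Oasl2 (0.37) and Ifi209 (0.39), and Isg15 to Phf11b (0.37), Rsad2 (0.40), which encodes the antiviral protein viperin, and Slfn5 (0.40). Isg15 ranked 13th among the genes nearest to Usp18 (0.54), and Usp18 15th among those nearest to Isg15. Herc6 was nearest to Tor3a (0.22), Ifih1 (0.24), which encodes the RNA sensor MDA5, and Slfn8 (0.24), and Ube2l6 to H2-T24 (0.23), Slamf8 (0.29) and Ddx58 (0.33), the gene of RIG-I. Uba7 was nearest to Tap2 (0.18) and Tapbp (0.21), both of the class I antigen loading machinery, and Rnf114 (0.23). Trim25 was nearest to Degs1 (0.15), Ebp (0.15) and Eif3l (0.16), genes of lipid synthesis (Degs1, Ebp) and translation initiation (Eif3l), and the nearest of the other 5 members, Uba7, ranked 2387th (0.37). Over the 22 libraries other than MIA cortex LPS replicate 3 the 3 nearest genes were the same for 4 of the 6, while Chrac1 (0.21) took the place of Rnf114 for Uba7 and Psmb9 (0.34), of the immunoproteasome, that of Ddx58 for Ube2l6. Genes of small spread lie near each other on this measure. The values of Oasl2, Phf11b, Ifi209 and H2-T24 may depend on how reads were shared among related genes.

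**Figure D4:**
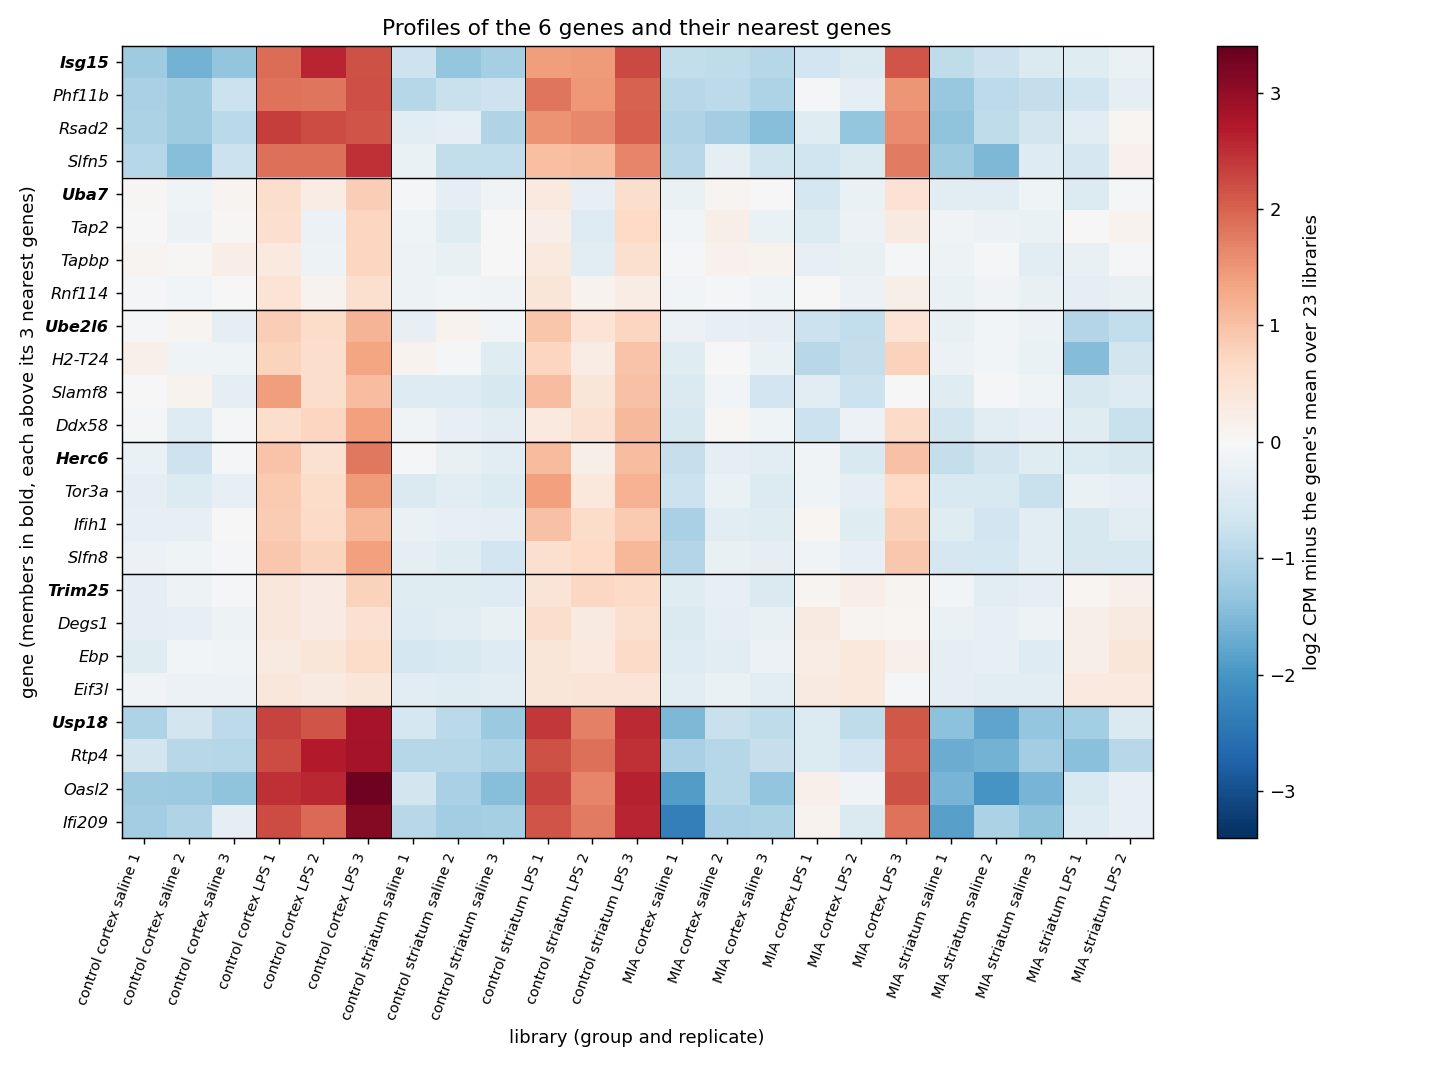
Log2 CPM minus the gene's mean over the 23 libraries, for the 6 genes (bold) and the 3 genes nearest to each, with libraries ordered by group. Isg15, Usp18 and their neighbours are high in the control LPS libraries and in MIA cortex LPS replicate 3, and Trim25 and its neighbours are also above their mean in the other MIA LPS libraries.

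The 40 genes of the interferon response reference list moved beside the 6. In control offspring 38 of these rose in cortex and 33 in striatum, and in MIA offspring 22 rose in cortex (8 without MIA cortex LPS replicate 3) and 8 in striatum, with median log2 fold changes of 2.60, 2.09, 1.40 (0.45) and 0.60. Of all genes tested, 10.9%, 12.7%, 7.05% (7.07% without that library) and 6.93% rose in the same 4 comparisons. In MIA cortex LPS the median log2 CPM of the list was 4.31, 4.18 and 6.36 in replicates 1, 2 and 3. In MIA striatum LPS it was 3.76 and 4.37 in replicates 1 and 2, and 5.22 in the library marked as excluded. After LPS 6 of the 40 were lower in MIA than in control striatum, where 0.105% of all genes were. Without MIA cortex LPS replicate 3 the number was 23, where 0.453% of all genes were lower. The averaged interaction was called for 0 of the 40 by edgeR and 14 by DESeq2, which called 152 of all genes in either direction. An unadjusted p under 0.05 was reached by 33, all lower, as by 5.72% of all genes in that direction. The median interaction of the list was -1.36, beside -0.03 over all genes. Without that library edgeR called 26, all lower, with a median of -1.90. Of all genes 0.582% were called lower. That library had the highest list median of the MIA LPS libraries used, so leaving it out by itself lowers the MIA response of the list. Phf11b (-1.73 ± 0.33, adjusted p = 0.0521) and Ifitm3 (-1.75 ± 0.35, adjusted p = 0.063) were not called with all 23 libraries. This list was drawn up with earlier results of these data known.

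The other genes around the conjugation system were read against all genes: in control cortex 10.9% of all genes tested rose and 7.25% fell. Of 12 other ubiquitin-like modifiers and ubiquitin genes tested, 3 rose there: Nedd8 (log2 0.64), Sumo2 (0.47) and Ufm1 (0.58). Of 14 ubiquitin E1 and E2 relatives 4 rose there, among them Ube2l3 (0.35 ± 0.11, adjusted p = 0.0399), the ubiquitin E2 closest to Ube2l6, while Uba1, the main ubiquitin E1, did not pass (0.33 ± 0.15, adjusted p = 0.137). Of 6 HERC and RBR ligases 1 fell, Herc2 (by 0.93), and Herc3 (0.47 ± 0.59) and Arih1 (0.07 ± 0.53) did not pass. Of 6 other deubiquitinases with reported ISG15 activity 1 rose (Usp5, 0.41) and 1 fell (Usp2, by 0.70).

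On the signalling side, Stat2 and Irf9 were among the genes of the interferon receptor arm that rose with LPS in control offspring. Stat2 rose by 1.62 in cortex and 1.56 in striatum on the log2 scale, and Irf9, which encodes a DNA-binding partner of STAT2, by 1.05 and 1.41. Ifnar2, the receptor chain that USP18 binds, did not pass in control cortex (-0.03 ± 0.12) or striatum (0.07 ± 0.12). In MIA offspring Irf9 rose in cortex (0.67 ± 0.16, adjusted p = 0.01) but was not called there without MIA cortex LPS replicate 3 (0.43, adjusted p = 0.0856), and it did not pass in striatum (0.28 ± 0.18, adjusted p = 0.429). Stat2 did not pass in MIA cortex (1.11 ± 0.38, adjusted p = 0.0655; 0.49, adjusted p = 0.423, without that library) or MIA striatum (0.76 ± 0.42, adjusted p = 0.317). Among 7 listed genes of the RIG-I arm and other RNA binding proteins, Dhx58 (2.33), Ddx58 (1.14) and Ifih1 (1.07) rose in control cortex. Rnf135, which encodes a RIG-I ligase, fell there by 0.86. Of 10 interferon-linked TRIM genes 2 rose there, Trim30a (1.86) and Trim30d (1.23). Itgal, the alpha chain of LFA-1, through which free ISG15 acts on lymphocytes, rose in all 4 groups, by 3.44 (cortex) and 5.20 (striatum) in control and by 2.21 and 3.99 in MIA offspring. Itgb2, its beta chain, rose in MIA cortex (0.59), MIA striatum (0.75) and control striatum (0.69), and differed by 0.50 ± 0.18 in control cortex (adjusted p = 0.0571). In MIA cortex without replicate 3 of LPS, Itgal again rose (2.21, adjusted p = 0.00069) and Itgb2 was not called (0.60, adjusted p = 0.054).

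Some reads of 3 of the 6 genes may belong to overlapping annotations. In GENCODE M21, Herc6 overlaps Gm45193 and Gm19244, Uba7 overlaps Gm20661, and Usp18 overlaps Gm44148 on the other strand; the counting is not stated to use strand. Values that were not whole occurred in 10, 6 and 1 of the 23 libraries for Herc6, Uba7 and Usp18 and in none for Isg15, Ube2l6 and Trim25.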

How the data were processed

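Libraries of the Smart-Seq2 type were made from RNA of CD11b-positive cells taken with magnetic beads after perfusion, removal of the meninges and papain digestion, per the labels' protocols. The deposited table holds 1 expected count per gene and library. STAR, RSEM and DESeq2 are named in the submitters' processing notes, with no version; the genome build is not given in the sources used here. Of all values 6.92% were not whole, and expected counts were rounded. Of 55487 identifiers 55141 matched a symbol. Genes were kept by filterByExpr (minimum count 10, total 15), scaled with TMM and tested with edgeR 4.0.16 in R 4.3.3 (quasi-likelihood, 1 term per group, 23 libraries, 15 residual degrees of freedom, two-sided). Each of 18 comparisons was adjusted by Benjamini and Hochberg over all 17139 genes, and a gene was called at adjusted p under 0.05. SE is that implied by the F statistic. CPM uses TMM totals; profiles are log2 CPM (prior count 2), and the excluded library was scaled together with the other 23 to give its CPM.

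The members and lists were chosen with earlier results of these data known. Named are the 6 genes, up to 3 called genes per list with the smallest adjusted p in control cortex and in the averaged interaction, 8 relatives fixed by name, and the 3 nearest genes of each member. A gene of the lists is not reported here. The script was tested on simulated data. Alternatives were DESeq2 1.42.0, DESeq2 size factors, no filter, only the groups compared, the excluded library added back, a replicate block, and each library left out. Same-numbered libraries deviated together (every r over 0.1 with 3 pairs) for the LPS effect in MIA cortex (0.12 to 0.31) and for striatum minus cortex in control LPS (0.28 to 0.31) only. The labels do not say what a number marks. The averages over regions treat cortex and striatum libraries as independent. Their p-values could be too small if a number marks 1 animal.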

Additional observations from a re-analysis of the deposited data

Results flagged for a closer look

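After LPS in the striatum, Ube2l6 lay above saline in every control library and below it in both MIA libraries. Against the saline mean of their own group, the 3 control LPS libraries were higher by 1.03, 0.54 and 0.81 on the log2 scale, and the 2 MIA libraries differed by -0.80 and -0.67. The interaction was -1.54 ± 0.38 (edgeR, adjusted p = 0.36 with all 23 libraries). DESeq2 gave an adjusted p of 0.0493, where it called 37 of all genes in either direction. Without MIA cortex LPS replicate 3 edgeR gave an adjusted p of 0.0059, where 0.129% of all genes were called lower. Border macrophage markers summed to 853 to 1160 CPM in those MIA libraries, against 315 to 473 CPM in MIA striatum saline, and their part was not tested.

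The library marked as excluded, MIA striatum LPS replicate 3, which no comparison uses, held 3 of the genes above all 12 saline libraries: Isg15 at 13.7 CPM (highest saline library 4.19), Usp18 at 76.8 CPM (14.98) and Ube2l6 at 64.4 CPM (44.0). It held the other 3 below all 12: Herc6 at 17.7 CPM (lowest saline library 20.5), Trim25 at 11.7 CPM (22.1) and Uba7 at 43.1 CPM (51.2). How many of all genes lay outside the range of the saline libraries in this library was not counted. Whether this split is particular to these genes was therefore not tested.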

How the results depend on the processing

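No estimate of the 6 genes in the 18 comparisons changed sign past the threshold: of 1650 results of single genes under alternatives, 1583 kept their side of the threshold, 32 lost a call and 35 gained one. The number of genes called was 5 for LPS in control cortex (3 with the excluded library added back, without Ube2l6 and Trim25; 4 to 5 over left-out libraries) and 5 in control striatum (3 to 5 over left-out libraries). In MIA cortex it was 3 (1 with the excluded library added back, 0 with only the groups compared, 0 to 3 over left-out libraries), and in MIA striatum 0 (1 with the excluded library added back, Usp18; 1 with only the groups compared and 1 without MIA cortex LPS replicate 3, both Ube2l6). For MIA against control after LPS it was 0 in cortex (1 with no filter, 1 with DESeq2, 0 to 4 over left-out libraries) and 1 in striatum (2 with no filter, 5 with DESeq2, 0 with the excluded library added back, 0 with only the groups compared, 0 to 1 over left-out libraries, 3 without MIA cortex LPS replicate 3). For the interaction it was 0 in cortex (0 to 3 over left-out libraries), 0 in striatum (1 with DESeq2, 3 without MIA cortex LPS replicate 3) and 0 for the average (3 with no filter, 3 with DESeq2, 0 to 3 over left-out libraries). Over all genes DESeq2 called more than edgeR in each of the 18 comparisons. The cause of these shifts was not tested. With the replicate block the count for MIA against control in striatum LPS was 2 (Usp18 joined, adjusted p = 0.0492) and that for LPS in control cortex 6 (Uba7 joined, adjusted p = 0.0498); it changed no other call. Taking MIA cortex LPS replicate 3 out of comparisons that do not use it, out of the profiles and out of the lists was chosen after seeing the data. DESeq2 size factors moved no log2 difference of the 6 by more than 0.066. Each of the 6 genes had at least 37 counts in each of the 23 libraries.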
